A study of Homo sapiens with 4 samples.

Results

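The comparison described here set control population 2 against control population 1, a pair of poorly invasive populations of U87MG, an established human glioblastoma cell line. No treatment distinguishes the 2 in the labels, so the values show how far populations that carry the same name in the design lay apart. Both came from parental cells that were kept for 1 week on organotypic brain slices, in a medium for neural stem cells to which FGF and EGF were added, then isolated and expanded for 3 to 5 days before RNA extraction. The 2 other libraries of the study, of invasive population 1 and invasive population 2, had the same line, slices, medium and expansion, and serve here as reference levels. Which species gave the slices is not stated in the sources used here, and the cells were otherwise grown in DMEM with serum. Control 1 was analysed with invasive 1 and control 2 with invasive 2, so a difference between populations and one between the 2 rounds of analysis cannot be told apart. Each population was represented by 1 library of polyadenylated RNA; no replicate of either population enters, and no difference below was tested. Values are CPM, the counts of a gene per 1000000 counts of its library, differences are log2 of the CPM of control 2 over that of control 1, and bracketed ranges are exact binomial 95% intervals, which cover counting error only.

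Interleukin 1 and tumour necrosis factor act through receptors that release NF-kB, a family of transcription factors, from inhibitors that hold it in the cytoplasm. NF-kB then raises transcription of chemokines, cytokines, matrix proteases and its own inhibitors, so that many of these genes move together in responding cells. Cells of glial and mesenchymal origin secrete these products, among them CXC chemokines that attract neutrophils.

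Of 29387 genes present in both control files, 14074 had 20 or more counts over the 2 libraries and were compared; 12184 of them were protein-coding. The other 15313 genes were below that minimum. Control 1 held 17817756 counts and control 2 held 15444104, against 15466900 in invasive 1 and 13829871 in invasive 2. A level of 3 counts, the most that a count of 0 allows, corresponds to 0.168 CPM in control 1 and 0.194 CPM in control 2. The 10 most abundant genes took 4.41% to 5.28% of counts in the 4 libraries. Ribosomal protein genes, mitochondrially encoded genes and genes used as references in many cells had median log2 differences of -0.11, -0.07 and -0.12, and no member of these lists lay 2-fold apart. The line was low in GFAP, the astrocyte filament protein, with 2 and 4 counts in the controls, and high in the mesenchymal filament VIM, at 8146 and 7577 CPM.

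The bulk of genes had similar levels in the 2 controls, with a median log2 difference of 0.01, quartiles of -0.19 and 0.21, and 86.5% of genes within 1.5-fold. Control 2 was at least 2-fold higher in 425 genes (3.02%) and at least 2-fold lower in 293 (2.08%), 718 (5.1%) in either direction. Among protein-coding genes alone, 278 (2.28%) were 2-fold higher and 220 (1.81%) lower. At 4-fold, 80 genes (0.568%) were higher and 31 (0.22%) lower, and at 8-fold 30 (0.213%) were higher and 8 (0.0568%) lower. Shares past 2-fold were largest at low counts. Among genes with 20 to 99 counts 10.0% were 2-fold higher and 7.58% 2-fold lower. Among genes with 1000 to 9999 counts the shares were 0.919% and 0.184%. How much of this is counting error was not tested. In the 541 genes with 10000 or more counts, 12 (2.22%) were 2-fold higher and 2 (0.37%) lower. Of 95 genes with exactly 20 counts 36 were past 2-fold, as were 25 of 89 genes with 19 counts, which were left out. The 425 higher genes took 0.697% of the counts of control 1 and 2.64% of those of control 2, against 0.780% in invasive 1 and 0.964% in invasive 2.

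**Figure D1:**
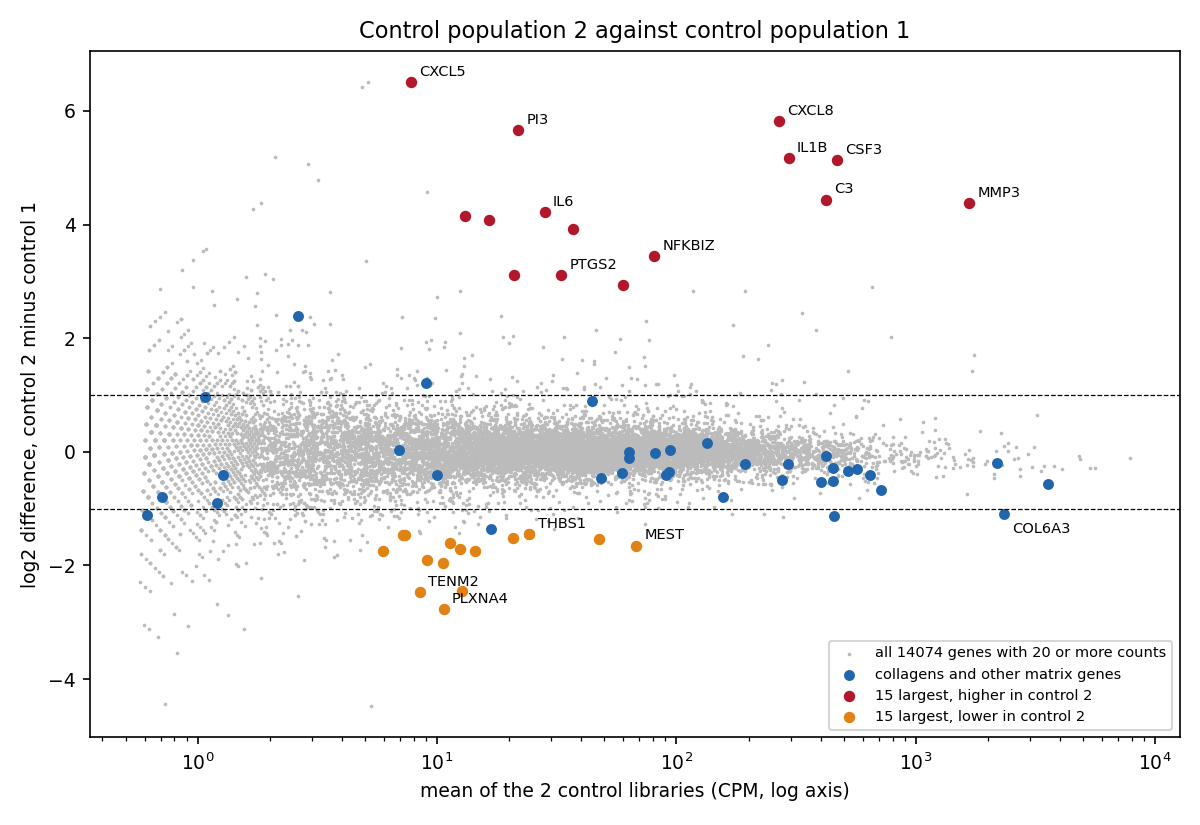
Log2 difference of control 2 minus control 1 (vertical) against the mean CPM of the 2 controls (horizontal, log axis) for each of 14074 genes, with dashed lines at 2-fold. Among protein-coding genes with at least 200 counts over the controls, red points are the 15 largest differences upward, from CXCL5 at 6.51 to ZC3H12A at 2.93, orange points the 15 largest downward, from PLXNA4 at -2.77 to THBS1 at -1.45, and blue points are collagens and other matrix genes.

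The 15 protein-coding genes with the largest upward differences, among those with at least 200 counts over the controls, were CXCL5, CXCL8, PI3, IL1B, CSF3, C3, MMP3, IL6, TNIP3, CXCL3, CXCL2, NFKBIZ, PTGS2, MMP1 and ZC3H12A. All 15 belong to lists of inflammation-related genes. Across 10 such lists (interleukin 1, CXC and CC chemokines, IL6 family and colony-stimulating factors, NF-kB subunits with their feedback genes, NF-kB effectors, acute phase, prostaglandins, complement, and matrix metalloproteinases), 105 genes could be compared. Of these, 43 (41.0%) were at least 2-fold higher in control 2 and 0 were 2-fold lower, where 3.02% and 2.08% of all genes were. These shares over all genes are the reference for every list count below. The 28 members that were 4-fold higher made up 35.0% of the 80 genes with such a difference and 26.7% of the 105. These lists were drawn up with earlier results of the same libraries known, so their counts describe the difference and are not independent evidence of its direction. Summed over their 154 genes, the level was 7205 CPM in control 1, 16407 in control 2, 8754 in invasive 1 and 8811 in invasive 2. Control 2 was the highest of the 4 libraries in 39 of the 43 genes and in all 28 of those past 4-fold. Choosing genes by the difference between the controls favours this. Control 2 was highest in 318 (74.8%) of all 425 genes 2-fold higher and in 71 (88.75%) of all 80 genes 4-fold higher.

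Among chemokines, CXCL8, the neutrophil attractant also called interleukin 8, had 9.32 CPM in control 1 and 527 in control 2, against 30.6 in invasive 1 and 97.9 in invasive 2. Its log2 difference was 5.82 [5.60 to 6.05]. Control 2 was highest and control 1 lowest of the 4. CXCL2 had 4.60 CPM in control 1 and 69.4 in control 2, with 5.82 and 10.7 in invasive 1 and 2. CXCL3 had 1.85 and 31.1 CPM in the controls, with 2.72 and 6.29 in the invasive libraries. Their log2 differences were 3.91 [3.59 to 4.26] and 4.07 [3.56 to 4.63], and in both the other 3 libraries lay well below control 2. CXCL5 had 3 counts in control 1 and 237 in control 2, with 10 and 28 in invasive 1 and 2, a log2 difference of 6.51 whose interval, 4.95 to 8.80, is wide because of the low count. CXCL1, named after its values were seen, had 2 counts against 148, with 15 in each invasive library. All of these ligands bind the receptor CXCR2. The other CXC members compared did not share the difference: CXCL14 had 2.13 and 1.88 CPM in the controls, and CXCL12, the ligand of CXCR4, 2.13 and 1.23. The interferon-induced CXCL9, CXCL10 and CXCL11 had 0 counts in both controls. Over the 7 members compared, 5 were 2-fold higher and the median log2 difference was 4.07. Of 4 CC chemokines 1 was 2-fold higher, CCL20, with 5 counts in control 1 and 22 in control 2; CCL2, the monocyte attractant, had 7.02 and 9.39 CPM.

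The 5 CXC chemokines past 2-fold lie in 1 cluster on chromosome 4, and their promoters are shown with that of IL6, on chromosome 7, because each of them holds a motif that few promoters of compared genes hold. The stretches are from RefSeq (GRCh38.p14), 250 bases before to 50 bases after the annotated start, written 5′ to 3′ on the gene's strand. They lie at chr4:73740319-73740618 (CXCL8, plus strand), chr4:74099146-74099445 (CXCL2, minus), chr4:74038640-74038939 (CXCL3, minus), chr4:73998628-73998927 (CXCL5, minus), chr4:73869143-73869442 (CXCL1, plus) and chr7:22726950-22727249 (IL6, plus). Capitals mark the kB consensus, the sequence class that NF-kB dimers bind, and in CXCL8 the related GGAATTTCC; overlapping matches on the 2 strands form 1 run.
CXCL8: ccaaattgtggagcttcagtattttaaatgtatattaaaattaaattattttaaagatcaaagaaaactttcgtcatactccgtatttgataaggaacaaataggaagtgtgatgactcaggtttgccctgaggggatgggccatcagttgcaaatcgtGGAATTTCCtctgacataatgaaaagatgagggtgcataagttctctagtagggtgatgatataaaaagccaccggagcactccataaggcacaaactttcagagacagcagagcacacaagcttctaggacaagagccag
CXCL2: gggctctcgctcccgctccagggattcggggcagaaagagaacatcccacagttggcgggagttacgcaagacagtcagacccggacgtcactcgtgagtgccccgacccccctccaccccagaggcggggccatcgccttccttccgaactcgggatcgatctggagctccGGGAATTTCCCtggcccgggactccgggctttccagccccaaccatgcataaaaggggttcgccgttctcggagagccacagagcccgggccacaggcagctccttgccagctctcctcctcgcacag
CXCL3: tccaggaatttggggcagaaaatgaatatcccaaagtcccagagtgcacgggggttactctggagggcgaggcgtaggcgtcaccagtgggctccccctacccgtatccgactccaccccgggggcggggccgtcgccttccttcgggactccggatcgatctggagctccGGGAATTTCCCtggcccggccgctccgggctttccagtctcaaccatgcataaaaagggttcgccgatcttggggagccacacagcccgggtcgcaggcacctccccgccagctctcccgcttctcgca
CXCL5: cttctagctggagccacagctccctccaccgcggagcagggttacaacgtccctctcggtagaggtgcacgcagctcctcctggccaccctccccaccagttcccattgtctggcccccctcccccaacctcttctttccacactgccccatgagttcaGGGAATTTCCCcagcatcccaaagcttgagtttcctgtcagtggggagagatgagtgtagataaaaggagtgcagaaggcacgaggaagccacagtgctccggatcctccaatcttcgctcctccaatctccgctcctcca
CXCL1: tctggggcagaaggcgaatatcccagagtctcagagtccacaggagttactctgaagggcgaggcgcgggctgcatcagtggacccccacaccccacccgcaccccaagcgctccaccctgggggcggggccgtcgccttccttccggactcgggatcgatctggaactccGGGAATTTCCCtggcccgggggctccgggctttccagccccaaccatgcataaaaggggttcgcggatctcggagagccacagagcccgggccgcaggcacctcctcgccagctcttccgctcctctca
IL6: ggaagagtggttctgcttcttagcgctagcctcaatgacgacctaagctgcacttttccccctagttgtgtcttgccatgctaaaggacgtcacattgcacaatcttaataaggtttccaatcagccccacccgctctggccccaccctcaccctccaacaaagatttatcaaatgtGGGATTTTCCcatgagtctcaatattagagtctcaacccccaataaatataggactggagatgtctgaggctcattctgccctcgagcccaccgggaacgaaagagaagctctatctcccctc
The match began 78 bases before the start in CXCL2, 79 in CXCL1 and CXCL3, 91 in CXCL5 and CXCL8, and 73 in IL6. Counted over both strands, the kB consensus was present in 5.91% of all 35116 promoters of the table and in 6.79% of the 15515 promoters of compared genes. Among genes 4-fold higher in control 2, 48 of 80 were matched by symbol, with 73 promoters. The consensus was in 26.0% of those promoters and in 15 of the 48 genes (31.2%), TNIP3, NFKBIZ, TNFAIP3 and BIRC3 among them. Counted by gene, the share was 9.02% of the 10593 compared genes that were matched. Neither the consensus nor GGAATTTCC was in the promoters of IL1B, PTGS2, ZC3H12A, SOD2, PTGES, CSF2, IL1RN and F3, all 4-fold higher. Among genes 4-fold lower, 24 of 31 were matched, and 1 of 35 promoters (2.86%) held it. At 2-fold the sets hardly differed: 12.8% of promoters of higher genes and 10.5% of promoters of lower genes held the consensus, both above the share of compared genes. GGAATTTCC, searched after these promoters had been read and overlapping the consensus, was in 0.432% of promoters of compared genes and 9.59% of those of the 4-fold higher genes, and in 1 of the 35 of the 4-fold lower genes. The C/EBP motif TTGCNNAA was in 7.64% and 12.3% and the AP-1 motif TGANTCA in 5.67% and 12.3% of the promoters of compared and of 4-fold higher genes. Among 4-fold lower genes the shares were 11.4% and 5.71%, so that the C/EBP motif was about as frequent on both sides. Starts of 1 gene can share sequence, and the promoters of CXCL1, CXCL2 and CXCL3 are alike around the match, so these are not separate instances. A match describes letters and not a bound site, and CSF3, C3, MMP3, PI3 and MMP1 were not matched.

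In the interleukin 1 system, IL1B, the secreted cytokine, had 15.9 CPM in control 1 and 572 in control 2, against 12.1 in invasive 1 and 29.6 in invasive 2. That is a log2 difference of 5.17 [4.99 to 5.34], and control 2 stood 19.3-fold above the highest of the other 3. IL1RN, which encodes the receptor antagonist, had 2.64 and 17.4 CPM in the controls, with 4.78 and 7.45 in the invasive libraries (log2 2.72 [2.27 to 3.20]). IL36RN, the antagonist of the related interleukin 36 receptor, had 25.1 and 124 CPM in the controls, with 49.6 and 69.1 in the invasive libraries. The agonist IL36B had 90.4 and 289 CPM in the controls, with 181 and 245 in the invasive libraries, where control 1 and not control 2 stood apart. The agonists and their antagonists were thus both higher in control 2. IL1R1, the signalling receptor, had 37.3 and 91.3 CPM in the controls, and its partner IL1RAP 18.6 and 17.9. Of 12 members compared, 8 were 2-fold higher, with a median log2 difference of 1.45; CASP1, which cleaves the IL1B precursor, had 3.87 and 7.90 CPM. TNF itself had 1 and 2 counts in the controls.

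CSF3 drives the growth of granulocytes. It had 25.8 CPM in control 1 and 907 in control 2, against 21.1 in invasive 1 and 12.7 in invasive 2. Its log2 difference was 5.13 [5.00 to 5.27], and control 2 was 35.1-fold above control 1, the next highest library. IL6 had 2.86 and 53.4 CPM in the controls, with 3.94 and 7.38 in invasive 1 and 2 (log2 4.22 [3.81 to 4.66]). LIF, another cytokine that signals through gp130, had 48.0 and 340 CPM, with 48.4 and 67.6 in the invasive libraries. The receptors differed less: IL6ST, which encodes gp130, had 406 and 512 CPM in the controls, IL6R 16.2 and 15.5, and LIFR 71.7 and 68.4. CSF1 and IL11 were lower in control 2, at 163 and 142 CPM and at 26.3 and 20.3 CPM, both within 2-fold. CSF2, with 2 and 63 counts in the controls, and CTF1 completed the 5 of 13 members past 2-fold. The list's median log2 difference was 0.34, since the members that differed were ligands and the remainder lay near 0.

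The 19 subunits and feedback genes of NF-kB all had a log2 difference above 0, with a median of 0.56, and 8 were 2-fold higher. NFKBIZ, an atypical nuclear member of the IkB family, had 13.6 and 148 CPM in the controls, with 20.5 and 18.4 in invasive 1 and 2 (log2 3.44 [3.25 to 3.64]). ZC3H12A, a ribonuclease that degrades cytokine transcripts, had 13.9 and 106 CPM, with 18.8 and 15.5 in the invasive libraries (log2 2.93 [2.73 to 3.13]). TNIP3, a partner of the ubiquitin editor TNFAIP3, had 1.40 and 24.8 CPM, with 4.01 and 7.52 in the invasive libraries. In all 3 genes control 2 was more than 2-fold above each other library. TNFAIP3 had 16.9 and 75.4 CPM in the controls, BIRC3, an antiapoptotic ubiquitin ligase, 7.46 and 30.1, and NFKBIA, the classical inhibitor IkB-alpha, 35.0 and 111. TNIP1, at 107 and 332 CPM, and RELB, at 7.13 and 18.3, also passed 2-fold. Of the 5 subunits, RELB was thus past 2-fold, at 1.36 log2 units, and the other 4 were not, with REL at 0.65, NFKB1 at 0.56, NFKB2 at 0.52 and RELA at 0.05. RELA, a transactivating subunit, had 87.9 CPM in control 1 and 91.2 in control 2. Among effectors, SOD2, the mitochondrial superoxide dismutase, had 155 and 1161 CPM in the controls, with 269 and 196 in invasive 1 and 2 (log2 2.90 [2.85 to 2.96]). IER3 and IRAK2 were also past 2-fold. TNFRSF9, at 5.89 and 16.0 CPM in the controls, was higher still in the invasive libraries, at 36.1 in both. ICAM1 had 8.03 and 14.8 CPM, and VCAM1 0 counts. In all, 6 of 12 effectors were 2-fold higher, with a median of 1.02.

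**Figure D2:**
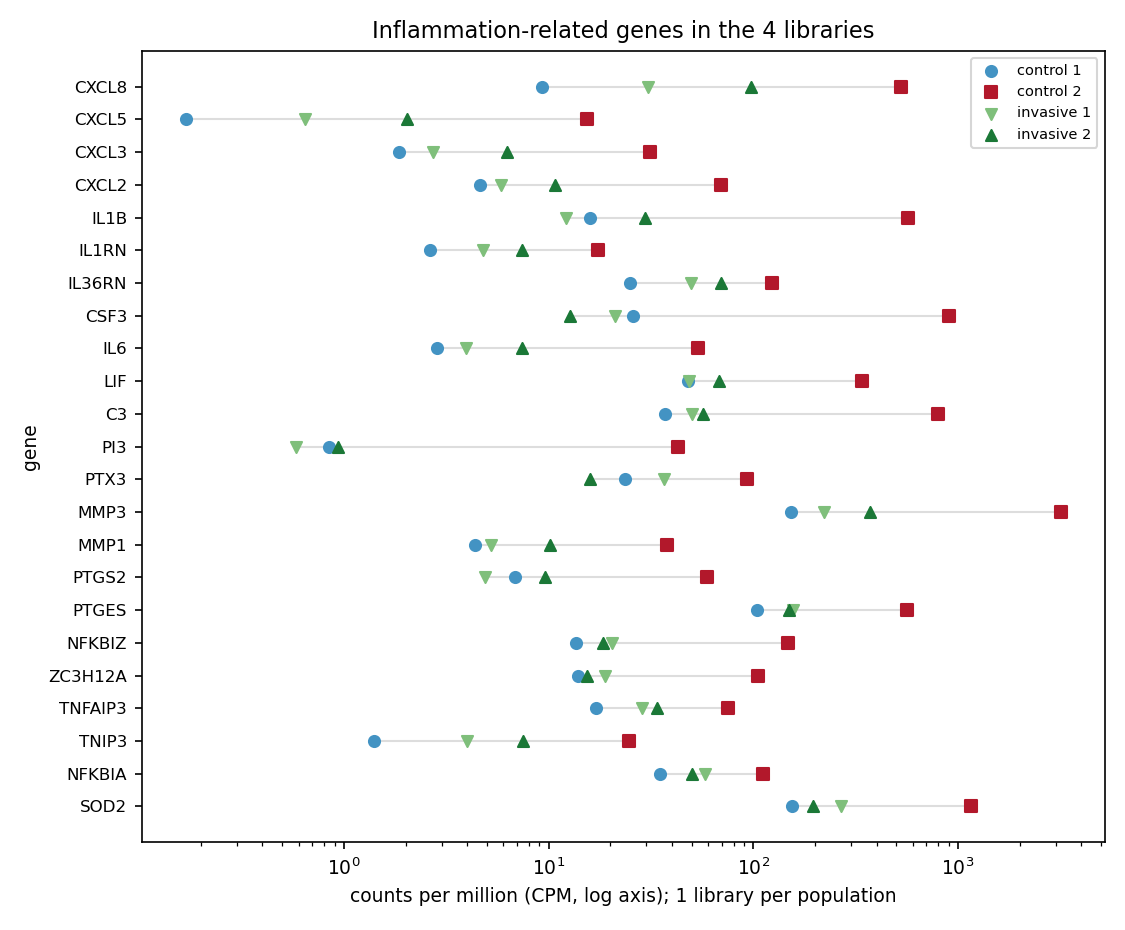
CPM (horizontal, log axis) of 23 inflammation-related genes in the 4 libraries, 1 point per library. Control 2 (red squares) is the rightmost point for each of them, as for CSF3 at 907 CPM against 25.8 in control 1.

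Prostaglandin synthesis showed a difference in its inducible enzymes. PTGS2, the inducible cyclooxygenase, had 6.85 and 59.3 CPM in the controls, with 4.91 and 9.54 in invasive 1 and 2 (log2 3.11 [2.84 to 3.40]). PTGES, the prostaglandin E synthase, had 104 and 564 CPM, with 155 and 150 in the invasive libraries (log2 2.44 [2.37 to 2.51]). PLA2G4A, which frees arachidonic acid, had 16.7 and 20.7 CPM, and the constitutive synthases PTGES2 and PTGES3 were at 60.5 and 55.9 and at 307 and 266 CPM. PTGS1, the constitutive cyclooxygenase, had 1 and 0 counts. Thus 3 of 9 members were past 2-fold, the receptor PTGER3 with few counts being the other.

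C3, the central complement component, had 37.0 CPM in control 1 and 802 in control 2, against 50.2 in invasive 1 and 56.7 in invasive 2. Its log2 difference was 4.44 [4.33 to 4.55], and it was the 1 member of 12 past 2-fold. C1R and C1S, the proteases of the classical pathway, had 35.3 and 69.0 and 40.5 and 76.3 CPM, both just under 2-fold. CFI, a protease that cleaves C3b, was lower in control 2, at 14.9 and 8.16 CPM. Of 12 acute phase and antimicrobial genes present, 2 had enough counts. PI3, the elastase inhibitor elafin, had 0.842 and 42.8 CPM in the controls, with 0.582 and 0.940 in invasive 1 and 2 (log2 5.67 [4.94 to 6.51]). PTX3, a soluble pattern recognition molecule, had 23.6 and 93.1 CPM, with 36.7 and 15.9 in the invasive libraries. SAA1, LCN2 and SERPINA3, other members of the list, were at 3 counts or fewer in both controls.

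Matrix proteases differed by member. MMP3 (stromelysin 1) had 153 CPM in control 1 and 3183 in control 2, against 222 in invasive 1 and 373 in invasive 2, a log2 difference of 4.38 [4.33 to 4.44]. It was also the gene with the largest upward difference in CPM of all protein-coding genes compared. MMP1, the interstitial collagenase, had 4.38 and 37.7 CPM in the controls, with 5.24 and 10.2 in the invasive libraries (log2 3.11 [2.77 to 3.47]). MMP12, the macrophage elastase, had 3 and 87 counts. In contrast, the gelatinase MMP2 had 2099 and 1872 CPM, and MMP14, which activates it at the cell surface, 454 and 436. Of the inhibitors, TIMP1 had 335 and 537 CPM and TIMP2 245 and 168. The list had 4 of 15 members past 2-fold and a median of 0.28, which was -0.03 over the 11 members with at least 100 counts. In the plasminogen and coagulation list, 3 of 13 were past 2-fold. TFPI2, a Kunitz-type protease inhibitor, had 826 and 2684 CPM in the controls, with 314 and 459 in invasive 1 and 2. SERPINB2, which inhibits urokinase, had 28.8 and 206 CPM, with 29.2 and 91.4 in the invasive libraries. F3, tissue factor, had 13.4 and 54.2 CPM, with 14.5 and 42.8 in the invasive libraries. Urokinase itself (PLAU) had 552 and 455 CPM and its receptor PLAUR 191 and 176.

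Several of these genes neighbour each other in the genome, and the windows below were chosen after their values were seen. On chromosome 2, between 112773915 and 113134016 (GRCh38, as in the files), 5 of the 12 genes listed had enough counts, namely IL1A, IL1B, IL36B, IL36RN and IL1RN. All 5 were 2-fold higher, from 1.62 to 5.17. On chromosome 4, between 73740506 and 74099293, the 5 genes with enough counts, of 9 listed, were all 4-fold higher, from 3.91 to 6.51, while CXCL6 and PF4V1 between them had 0 counts in all 4 libraries. On chromosome 11, between 102520508 and 102875034, the 4 of 10 genes with enough counts were MMP7, MMP1, MMP3 and MMP12, from 1.43 to 5.06. Neighbouring MMP8 and MMP10 had 0 and 5 and 2 and 9 counts in the controls. In control 1, CXCL1 had 2 counts, CXCL5 3, MMP7 6 and MMP12 3. These genes reached the minimum only with the counts of control 2, which favours a higher value there.

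**Figure D3:**
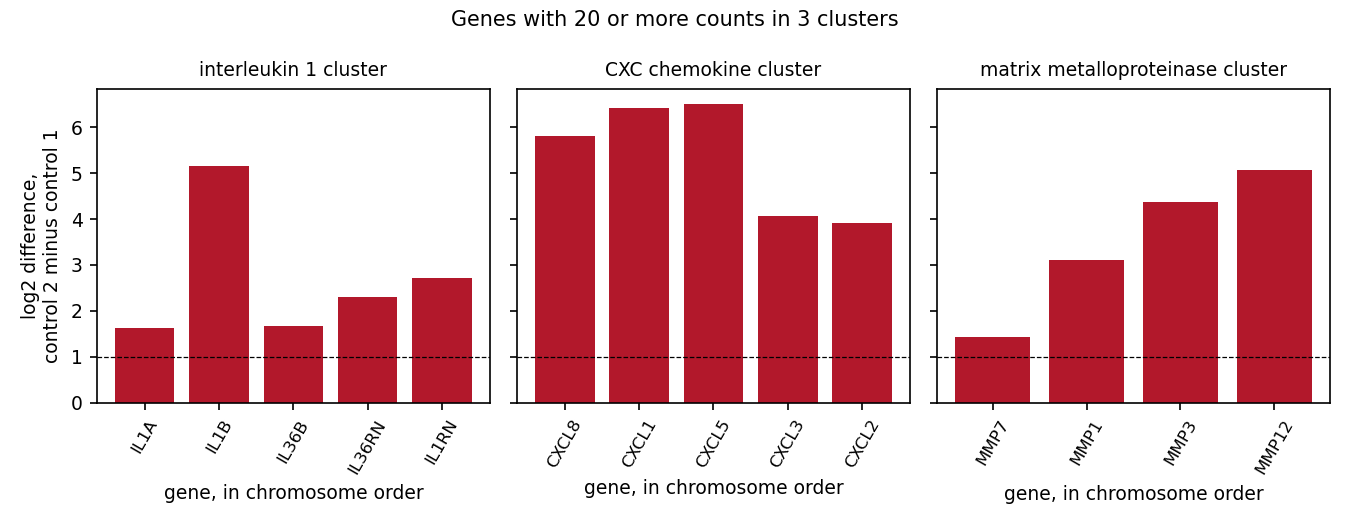
Log2 difference of control 2 minus control 1 (bars, 1 per gene) for genes with 20 or more counts in 3 clusters, in chromosome order, with the dashed line at 2-fold. Each bar shown lies above the line, from 1.43 in MMP7 to 6.51 in CXCL5. CXCL1, CXCL5, MMP7 and MMP12 had under 20 counts in control 1 and reached the minimum only with control 2.

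Interferon and antigen presentation genes did not share the size of difference. Of 25 interferon-stimulated genes, 1 (XAF1, at 0.673 and 1.68 CPM) was 2-fold higher, 21 lay above 0 and the median was 0.33. That count is near the share of all genes compared, 3.02%. IFIT1 had 6.40 and 3.56 CPM. None of 15 MHC class I genes was 2-fold apart, with a median of 0.11; B2M had 1220 and 1435 CPM.

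Growth factor ligands had 6 of 26 members 2-fold higher and 0 lower, where 3.02% and 2.08% of all genes were, with a median of 0.26. FGF2, basic fibroblast growth factor, had 140 and 624 CPM in the controls, with 173 and 334 in invasive 1 and 2 (log2 2.15 [2.09 to 2.22]). EREG, a ligand of the EGF receptor, had 203 and 477 CPM, with 207 and 420 in the invasive libraries, and BMP2 5.22 and 12.9 CPM. FGF7 and BMP6, both with few counts, and GDF15 were the others. None of 18 feedback genes of FGF and EGF signalling lay 2-fold apart, with DUSP6 at 65.7 and 79.4 CPM and SPRY4 at 56.7 and 50.6. HGF, the ligand of MET, was lower in control 2, at 48.1 and 29.1 CPM, within 2-fold. In the list of mesenchymal glioblastoma genes, 4 of 17 were past 2-fold, LIF, CEBPD, RELB and CEBPB, the median was 0.23, and CD44 had 2146 and 2162 CPM. CEBPB, a transcription factor that acts with NF-kB on IL6, had 54.6 and 140 CPM in the controls, with 62.6 and 89.9 in the invasive libraries.

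Other genes higher in control 2 encode enzymes and stress proteins. AKR1B1, an aldose reductase, had 940 and 2508 CPM in the controls, with 1281 and 1200 in invasive 1 and 2. FTH1, the ferritin heavy chain, had 2482 and 3909 CPM in the controls but 5626 in invasive 2, so that control 2 was not the highest. NAMPT, an enzyme of NAD synthesis named after its values were seen, had 310 and 1259 CPM, with 277 and 444 in the invasive libraries. The value of NAMPTL, a NAMPT-like gene that the files list apart at 8.14 and 33.5 CPM, is uncertain, since how counting assigned reads that both could give was not tested. In the NRF2 and metallothionein list 6 of 17 members were 2-fold higher. Metallothioneins MT1E and MT1F, which bind zinc and copper, had 77.8 and 163 CPM and 12.8 and 30.4 CPM; in both, control 1 was the lowest of the 4 libraries, with MT1E at 172 and 136 CPM in invasive 1 and 2. NRF2 targets went both ways. AKR1C1 had 33.2 and 93.6 CPM and SRXN1, named after its values were seen, 5 and 22 counts, both past 2-fold, while NQO1 had 350 and 262 CPM and GCLC 46.1 and 69.6. Sterol synthesis genes had 17 of 20 members above 0, a median of 0.44 and none past 2-fold, with INSIG1 at 114 and 208 CPM.

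**Figure D4:**
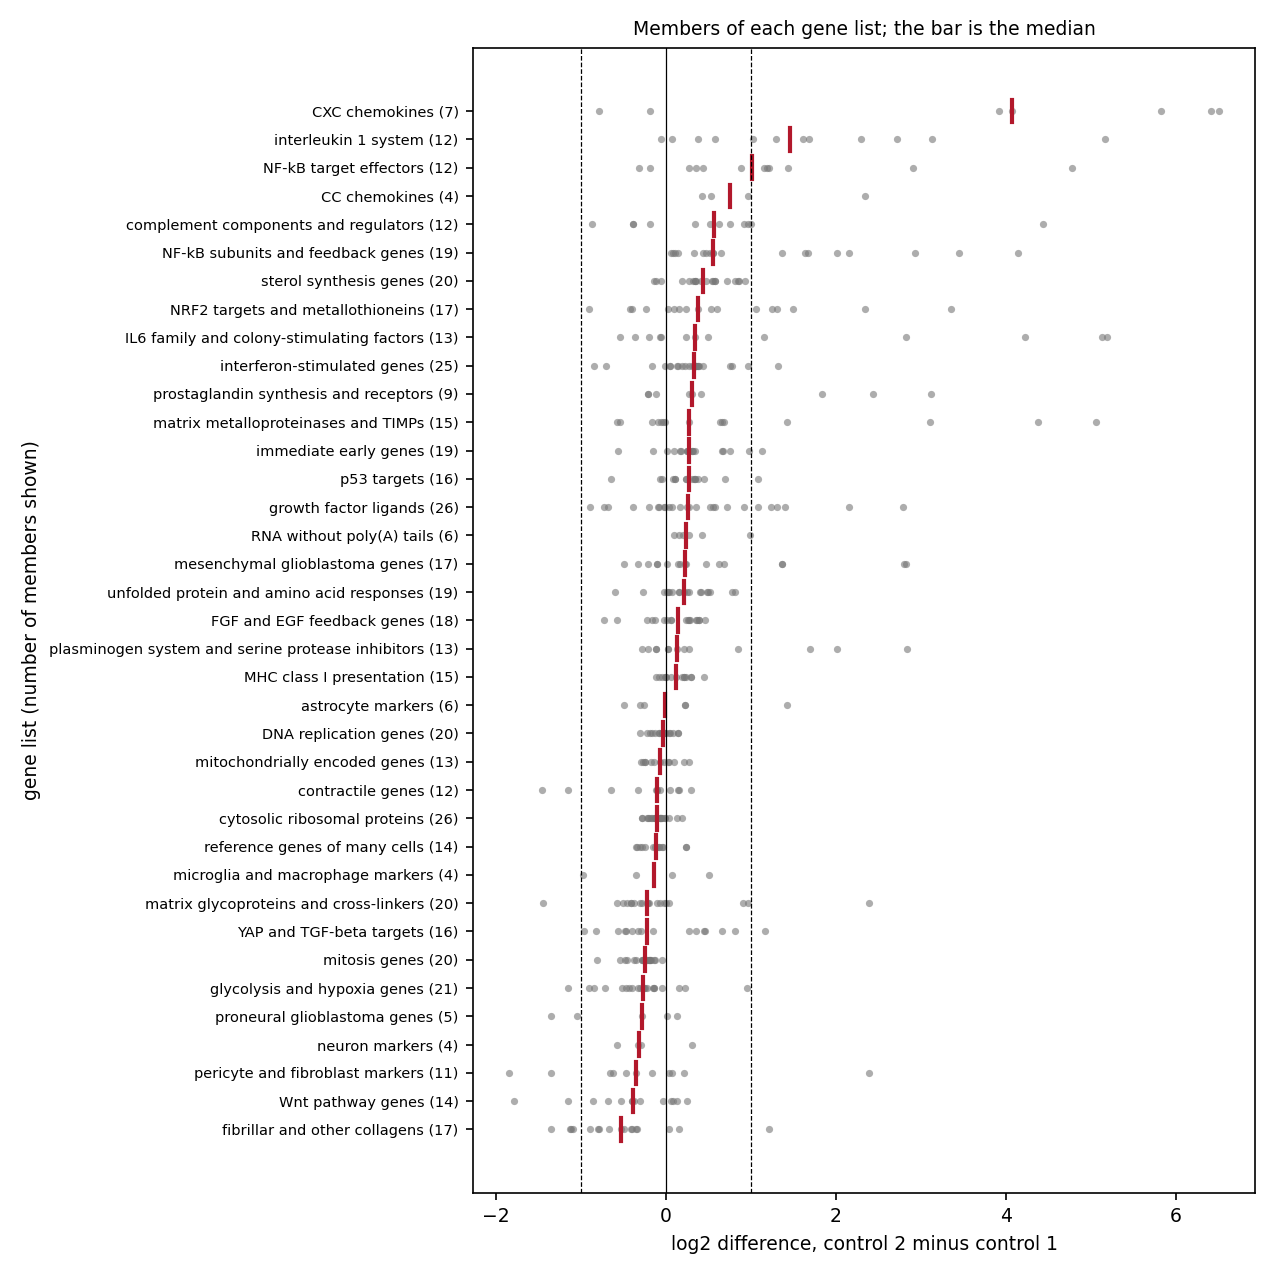
Log2 difference of control 2 minus control 1 (horizontal) of each member of the gene lists with at least 4 members measured; the red bar is the list's median and dashed lines mark 2-fold. The CXC chemokines have the highest median at 4.07 and the collagens the lowest at -0.53.

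The genes lower in control 2 were fewer and differed by less. The 15 largest among protein-coding genes with at least 200 counts were PLXNA4, TENM2, ST8SIA5, GAP43, GALNT16, RGS4, RASD2, ITGA11, MEST, ILDR2, PCOLCE, OLFML2A, PLEKHG4B, PPP2R2B and THBS1. PLXNA4, a receptor of semaphorin guidance cues, had 18.6 CPM in control 1 and 2.72 in control 2, against 35.3 in invasive 1 and 24.9 in invasive 2 (log2 -2.77 [-3.27 to -2.31]). TENM2, a teneurin adhesion protein, had 14.3 and 2.59 CPM, with 27.0 and 42.6 in the invasive libraries. GAP43, a growth cone protein, had 16.8 and 4.34 CPM, with 19.1 and 8.75 in the invasive libraries. MEST, an imprinted gene, had 103 and 32.9 CPM, with 131 and 71.7 in the invasive libraries (log2 -1.65 [-1.79 to -1.51]). ITGA11, the collagen-binding integrin subunit, had 19.0 and 5.83 CPM, with 30.3 and 18.5 in the invasive libraries. In these 5, control 2 was the lowest of the 4 libraries. PCOLCE, which enhances procollagen processing, had 70.5 and 24.4 CPM in the controls but 76.4 in invasive 1 and 23.6 in invasive 2, so that it followed the number of the population. OLFML2A did so too, at 30.8 and 10.7 CPM in the controls and 32.1 and 12.6 in invasive 1 and 2. So did RGS4, at 22.2 and 6.60 against 29.0 and 10.1, and PPP2R2B, at 10.6 and 3.82 against 19.8 and 6.87. In the rest of the 15, control 2 was at least 2-fold below each other library. KRT8, a keratin named after its values were seen, also followed the number of the population: the controls had 180 and 7 counts, invasive 1 had 102 and invasive 2 had 13.

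**Figure D5:**
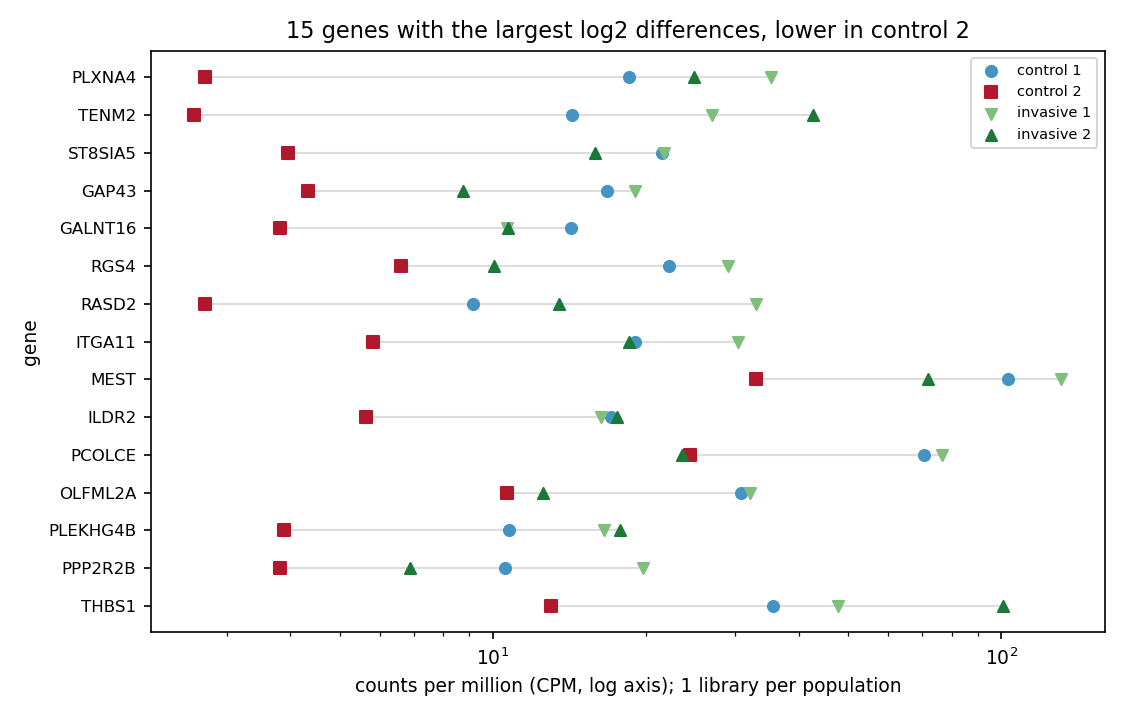
CPM (horizontal, log axis) in the 4 libraries of the 15 protein-coding genes with the largest downward differences among those with at least 200 counts over the controls, 1 point per library. Control 2 (red squares) is leftmost in each of them except PCOLCE, where invasive 2 lies at 23.6 CPM and control 2 at 24.4.

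Matrix genes made up part of the lower side. Of 17 collagen genes 14 lay below 0, 4 were 2-fold lower and 1 was 2-fold higher, with a median of -0.53, against 0.01 for all genes. COL6A3, a chain of type VI collagen, had 3177 and 1485 CPM in the controls, with 2622 and 1822 in invasive 1 and 2 (log2 -1.10 [-1.12 to -1.07]). That was the largest downward difference in CPM of all protein-coding genes compared. COL1A1 had 624 and 285 CPM in the controls, against 1458 and 873 in the invasive libraries (log2 -1.13 [-1.18 to -1.08]), and COL1A2 875 and 550 CPM, against 1927 and 1898. For both chains of type I collagen control 2 was lowest. COL13A1, a transmembrane collagen, had 24.1 and 9.39 CPM; invasive 2, at 14.4, lay nearer control 2. COL15A1 went the other way, with 5.44 and 12.6 CPM. Among 20 matrix glycoproteins and cross-linkers the median was -0.22, with THBS1, an activator of latent TGF-beta, past 2-fold downward at 35.6 and 13.0 CPM, against 47.7 and 101 in the invasive libraries. DCN was past 2-fold upward at 15 and 68 counts. FN1, fibronectin, had 4260 and 2859 CPM in the controls, with 5609 and 3254 in the invasive libraries. It followed the number of the population. Of 12 contractile genes 2 were 2-fold lower: MYLK, the myosin light chain kinase, had 383 and 173 CPM, with 641 and 415 in the invasive libraries, and TAGLN 7.13 and 2.59. Over these 3 lists, 49 genes were compared, 7 were 2-fold lower and 2 higher, where 2.08% and 3.02% of all genes were. Control 2 was the lowest of the 4 libraries in 32 of the 49, and in 26.6% of all genes compared. Their summed level was 18825 CPM in control 1, 13304 in control 2, 23358 in invasive 1 and 20086 in invasive 2.

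Processes of growth and metabolism differed little. All 20 mitosis genes lay below 0, none by 2-fold, with a median of -0.24; MKI67 had 797 and 580 CPM in the controls, with 729 and 504 in invasive 1 and 2. DNA replication genes had a median of -0.04. Glycolysis and hypoxia genes had a median of -0.27. CA9, a hypoxia-induced carbonic anhydrase, was the 1 of 21 past 2-fold, at 53.7 and 24.0 CPM, with 43.2 and 15.8 in the invasive libraries. Both MKI67 and CA9 thus followed the number of the population. Among 14 Wnt pathway genes the median was -0.39, with WNT5B at 20.9 and 9.39 CPM and RNF43 at 28 and 7 counts past 2-fold. YAP and TGF-beta targets had a median of -0.22 with CYR61, at 45.6 and 102 CPM, past 2-fold upward and none past it downward. Immediate early genes and p53 targets each had a median of 0.27, and genes of the unfolded protein and amino acid responses one of 0.21, with 1 member of 19, 1 of 16 and 0 of 19 past 2-fold. Transcripts without poly(A) tails, a sign of how RNA was selected, had a median of 0.23 over 6 genes and summed to 3347 CPM in control 1 and 3594 in control 2.

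Several defining markers of other cell types that a slice could contribute were at or near 0 in both controls. Microglia and macrophage markers summed to 167 CPM in control 1 and 127 in control 2, with 185 and 71.3 in invasive 1 and 2, of which CD74 gave 141 and 111 and CSF1R 21.3 and 10.8 in the controls. P2RY12 had 0 counts in both controls, PTPRC 1 and 0, ITGAM 4 and 8, CD14 1 and 4, and LYZ 1 and 0; 0 of the 4 members with enough counts were 2-fold apart. Lymphocyte and neutrophil markers summed to 0.281 and 0.259 CPM, with CD3E, NKG7, CSF3R and ELANE at 0 counts. Astrocyte markers summed to 840 and 692 CPM, mostly CLU and GJA1, with AQP4 at 0, and neuron markers to 62.0 and 63.0. Oligodendrocyte markers summed to 107 and 88.3 CPM, nearly all CNP, with MOG at 0. Pericyte and fibroblast markers summed to 319 and 243 CPM, with DCN higher and PDGFRA and THY1 lower by 2-fold. Endothelial markers summed to 14.8 and 24.4 CPM, with KDR at 10.9 and 22.9, TEK at 42 and 9 counts, and CLDN5 and FLT1 at 0. How reads from a slice of another species would be counted was not tested. In a bulk library, a larger share of cells with a transcript and more of it per cell cannot be told apart.

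Set beside the invasive libraries, control 2 stood apart more often than control 1 among genes past 4-fold, although the genes were chosen on the controls, which favours a control as the extreme. Among the 80 genes 4-fold higher, control 2 was at least 2-fold above each of the other 3 libraries in 47 (58.8%), and control 1 was at least 2-fold below each of them in 29 (36.3%). Among the 31 genes 4-fold lower, control 2 was 2-fold below each other library in 26 (83.9%), and control 1 2-fold above each in 2. At 2-fold the shares were smaller, 118 of 425 (27.8%) and 122 of 293 (41.6%) for control 2, against 93 of 425 (21.9%) and 28 of 293 (9.56%) for control 1, so that among higher genes the 2 controls were closer to even. The count minimum bears on these shares. Of the 31 genes 4-fold lower, 28 had under 20 counts in control 2, and of the 80 higher, 48 had under 20 in control 1. Such genes reached the minimum only through the other control, which favours a low value in the first. Of the 80 higher genes, invasive 1 lay nearer control 1 in 57 and invasive 2 in 39, and of the 31 lower genes in 28 and 27.

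Of the compared genes that do not code for protein, the largest upward difference with at least 200 counts was in RP11-753N8.1, at 0.730 and 17.4 CPM in the controls, with 3.04 in both invasive libraries. PAX8-AS1 had 31.3 and 122 CPM in the controls, with 82.5 and 104 in invasive 1 and 2, so that control 1 was the library that stood low. MIR6087 had 3.09 and 22.0 CPM in the controls, with 2.13 and 17.9 in invasive 1 and 2, so that it followed the number of the population. Its count does not measure a mature miRNA in libraries of polyadenylated RNA. RP5-940J5.9, at 2.30 and 11.9 CPM, lies within the span of GAPDH, whose level was 6155 and 5060 CPM. Downward, 4 genes qualified: LINC01119, RP4-555D20.2, RP13-463N16.6 and GAS6-AS1, led by LINC01119 at -1.11. The strand setting of the counting is not stated in the sources used here, so values of antisense and overlapping genes are uncertain.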

How the data were processed

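Polyadenylated RNA of 4 U87MG populations was sequenced, 1 library each, and groups were taken from the titles. The authors deposited raw whole-number read counts per Ensembl gene, per the file headers; TopHat2 2.0.12 with Bowtie, HTSeq, DESeq2, bcl2fastq 1.8.4 and the GRCh38 build are named, with no role or order, per the submitters' processing notes. The authors' normalized values were not used, since each pair was normalized apart. CPM were computed from the counts and library totals (Python 3.11.15, numpy 2.4.6, pandas 2.3.3, scipy 1.17.1) over genes in both control files with 20 or more counts over the 2 libraries. Log2 ratios had no prior count. The calculation was checked on simulated counts.

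Named genes were the markers IL1B, CSF3, MMP3, C3 and CXCL8, the 15 protein-coding genes per direction with the largest log2 difference and at least 200 counts, the 5 per direction with the largest CPM difference, list members past 2-fold with at least 200 counts, markers of other cell types, and up to 5 non-coding genes per direction. Members within 2-fold are given for contrast. CASP1, XAF1 and TAGLN, list members past 2-fold with fewer than 200 counts, are given in CPM. All other genes are said to be named after their values were seen or are given by counts. The comparison, its members and all 41 lists were chosen with earlier results of these data known. Alternatives used edgeR 4.0.16 and DESeq2 1.42.0 scaling (R 4.3.3), a prior count of 2, other count minimums and protein-coding genes only. Of 29387 shared genes, 15313 fell under the minimum; 2713 genes listed for control 1 alone and 4098 for control 2 alone were left out. Values of some genes are not reported here.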

Additional observations from a re-analysis of the deposited data

How the results depend on the processing

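With a minimum of 100 counts, 163 genes were 2-fold and 39 were 4-fold higher in control 2, and 95 were 2-fold and 4 were 4-fold lower; with no minimum these counts were 1724, 377, 950 and 168. Protein-coding genes alone gave 278 genes 2-fold higher, and a prior count of 2 gave 16 genes 4-fold lower. The CXC chemokine median was 5.82 at a minimum of 100, where 5 members were left. The acute phase median was 1.21 with no minimum. The oligodendrocyte median was -0.26 at a minimum of 100 and -0.14 with none. The endothelial median, -0.71 over 3 genes, turned to 1.06 at a minimum of 100, where KDR alone was left, and to 0.21 with none. Medians within 1.5-fold also changed sign: matrix metalloproteinases and TIMPs to -0.03 at a minimum of 100 and, with no minimum, proneural genes to 0.07, astrocyte markers to 0.22, and neuron and microglia markers to 0.21. TMM and median-of-ratios scaling moved all differences by -0.0072 and -0.0066. Of 48 named genes 0 reversed under any alternative run, a result that could hardly have come out otherwise. The count minimums and the protein-coding restriction left each gene's own difference unchanged. The largest move of a named gene was 0.77, in CXCL5 with a prior count of 2. No paired analysis was possible because each population has 1 library and the comparison lies between the pairs.

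Of the 425 genes 2-fold higher, 238 had under 20 counts in control 1, as had 48 of the 80 past 4-fold. These entered through control 2. Of the 293 lower genes 178 had under 20 in control 2, as had 28 of the 31 past 4-fold. Of the 43 inflammation-related genes, 11 had under 20 in control 1. With 1 library a side, differences between populations, cultures and library preparations cannot be told apart.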
